A study of Canis lupus familiaris with 4 samples.

Results

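Some of the strongest TWIST1 peaks of each experiment had no overlapping peak in the list of its repeat. The peaks described here ranked 1 to 2000 by −log10 p in the list of their own replicate and overlapped no peak of the other replicate's list, whatever its strength. They were chosen by their −log10 p, the value that sets the rank, and by the missing overlap. There were 382 of them in replicate 1, where 93.2% of all peaks and 85.8% of those with q of 0.05 or less had no partner, and 393 in replicate 2, where 91.7% and 83% had none. Together they were 775 of the 134071 peaks in both lists. The rule fixes these counts, so they are a description and nothing is read from them.

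TWIST1 is a basic helix-loop-helix transcription factor. It binds DNA as a dimer at short E-box motifs, takes part in the formation of the head mesenchyme and limbs, and drives epithelial cells towards a mesenchymal state. In ChIP-seq, DNA fragments bound by a protein are precipitated with an antibody and sequenced, and a peak is a place where fragments pile up over the level expected from input chromatin. A bound site is expected to recur when the experiment is repeated, and for this reason peak lists are often cut down to the peaks that replicates share.

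The cells were MDCK, an epithelial line from dog kidney, made to express human TWIST1 all the time under puromycin selection and carrying a mesenchymal phenotype. All 4 libraries came from these cells without further treatment: TWIST1 ChIP with a monoclonal antibody and input chromatin not precipitated, each in replicates 1 and 2. The replicates were independent experiments. The antibody lot is recorded for replicate 2 and given as unknown for replicate 1, and the names of the peaks carry Run2 in the list of replicate 1 and Run3 in that of replicate 2. The dog genome build is CanFam3.1, and the input entered only as the background of the peak calling. Parental MDCK cells and a precipitation with a control antibody were not analysed here. Sequences of the peaks and nearest genes were not used here.

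Replicate 1 had 73701 listed peaks, against 60370 for replicate 2. Fold enrichment, the authors' own value for each peak, is the number of overlapping fragments at the summit (the pileup) over the local background, after 1 is added to each. Pileup and background were recovered from fold and p, and were within 0.05 of a whole number at 100% of the pileups. The lowest background, taken as genome-wide, was 2.03 fragments in replicate 1 and 2.14 times as high, 4.33 fragments, in replicate 2. The 95% interval after a fold is exact Poisson, from its pileup with the background held constant. Those of shares and medians are exact binomial. All of them cover counting error only. No test was run between peaks with and without a partner, because peaks of 1 library are not replicates and the rule used the same peak calls.

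Peaks without a partner first appeared at rank 337 in replicate 1 and at rank 461 in replicate 2, and were more frequent in each further band of 250 ranks, though not in each bin of 100. Among ranks 1 to 250 neither list held any, which allows a share of up to 1.46% (upper bound of the exact binomial interval). In replicate 1 there were 5 among ranks 251 to 500, 18 among ranks 501 to 750 and 29 among ranks 751 to 1000. For replicate 2 the same bands held 1, 6 and 20. At ranks 1 to 1000 peaks without a partner made up 5.20% (3.91 to 6.76) in replicate 1 and 2.70% (1.79 to 3.90) in replicate 2.

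Replicate 1 had the higher share up to rank 1250 and replicate 2 past rank 1500, with 30.4% and 31.2% in the 250 ranks between. The share in replicate 1 rose from 24.4% in the first 250 ranks past 1000 to 41.2% (35.04 to 47.6) at ranks 1751 to 2000. The share in replicate 2 rose more steeply, from 13.6% to 60.8% (54.4 to 66.9) in the same bands. Both lists therefore ended at nearly the same total, 19.1% (17.4 to 20.9) of 2000 in replicate 1 and 19.6% (17.9 to 21.5) in replicate 2, by different courses.

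**Figure D1:**
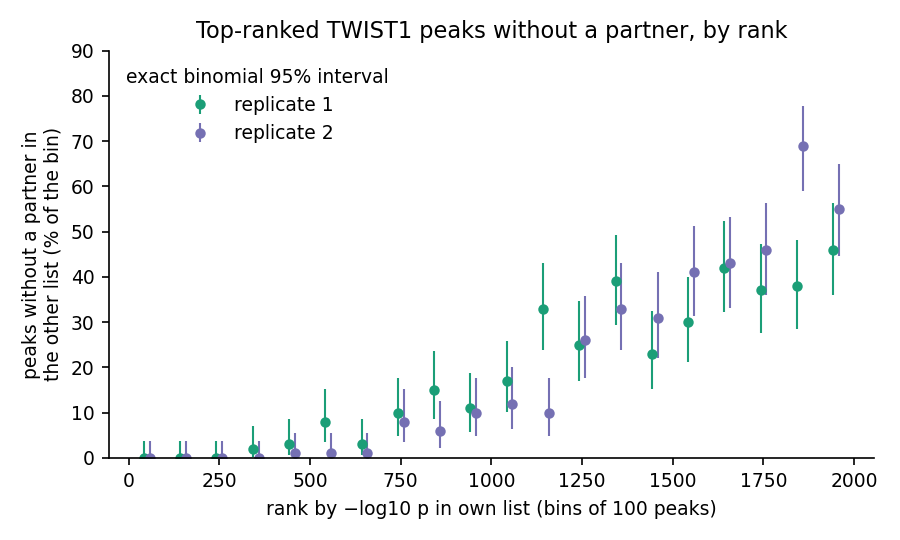
Share of peaks without a partner in the other list (vertical axis, % of each bin) against rank by −log10 p in bins of 100 peaks (horizontal axis), with exact binomial 95% intervals, for replicates 1 and 2. Both lists start at 0, and replicate 2 ends higher, with 60.8% against 41.2% over the last 250 ranks.

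The best ranked of these peaks were strongly enriched. The first in replicate 1, at rank 337, lay on chromosome 27 from 41690352 to 41690733. It was enriched 10.3-fold (7.11 to 14.5) from a pileup of 31 fragments over a background of 2.10. The nearest peak of replicate 2 lay 3806 bp away. The next partnered peak of replicate 1, at rank 338 on chromosome 30 (20690560 to 20690876), had a lower fold of 8.62, and its partner in replicate 2 reached 5.18-fold (3.55 to 7.32) at rank 588.

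Single peaks of nearly equal strength thus differed in whether the other list held a partner. The signal of the other library at sites without a partner is not in the lists, so only the listing is compared. On chromosome 1, the peak at 112230305 to 112230631 (rank 430) was enriched 9.59-fold (6.48 to 13.7) from 28 fragments and had no partner. The peak of rank 431 on chromosome 18 (45779391 to 45779852) had the same fold, pileup and background, and its partner in replicate 2 was enriched 4.44-fold (3.06 to 6.25). The same held at ranks 475 and 476, both on chromosome 20 and both enriched 9.26-fold from 27 fragments. The first, at 33418781 to 33419087, had no partner, and the second, at 56873572 to 56873924, had one enriched 3.95-fold (2.54 to 5.89).

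Rank 416 on chromosome 25 (11950865 to 11951153) was enriched 9.55-fold (6.50 to 13.6), and the nearest peak of replicate 2 was 91341 bp away. Rank 384 on chromosome 3 (29036914 to 29037082) was of another kind. It was 169 bp wide and enriched 4.22-fold (3.32 to 5.29), from 73 fragments over a background 8.16 times the genome-wide value.

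The best ranked peaks of replicate 2 without a partner were weaker and more mixed. The first, at rank 461 on chromosome 13 (46079808 to 46080106), was enriched 4.92-fold (3.52 to 6.71) from 38 fragments. The partnered peak of rank 462 on chromosome 14 (41032401 to 41032701) had a fold of 4.53, and its partner in replicate 1 reached 5.54-fold (3.89 to 7.68). The highest fold belonged to rank 651 on chromosome 22 (50546698 to 50546971), at 5.08 (3.45 to 7.21) from 29 fragments.

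Some of the best ranked peaks of replicate 2 sat close to a chromosome start. Rank 582 lay at 9267 to 9480 on chromosome 20 and was enriched 4.04-fold (2.94 to 5.43). Rank 710 lay at 90255 to 90525 on chromosome 37, where 131 fragments over a background 14.8 times the genome-wide value gave a fold of 2.03 (1.70 to 2.40). Rank 704 lay within chromosome 30 (6447210 to 6447492) and reached 4.63-fold (3.19 to 6.51).

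Over all 382 peaks of replicate 1 without a partner, fold enrichment ran from 1.70 to 10.3 with a median of 5.65 (quartiles 5.31 and 6.25), against a median of 6.79 in the 1618 partnered peaks of the same 2000 ranks and 3.05 in the whole list. Over the 393 of replicate 2, it ran from 1.79 to 5.08 with a median of 3.94 (quartiles 3.78 and 4.12), against 4.48 in the 1607 partnered peaks and 2.63 in the whole list. The lower medians went with lower ranks. Past rank 1000 the order was the other way round, with medians of 5.62 without and 5.53 with a partner in replicate 1, and 3.94 and 3.84 in replicate 2. The median was higher without a partner in all 5 bands of 250 ranks that held at least 20 such peaks, in both replicates. At a given p a lower background comes with a smaller pileup and a higher fold by the arithmetic of the test, so this order repeats that of the backgrounds given below.

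**Figure D2:**
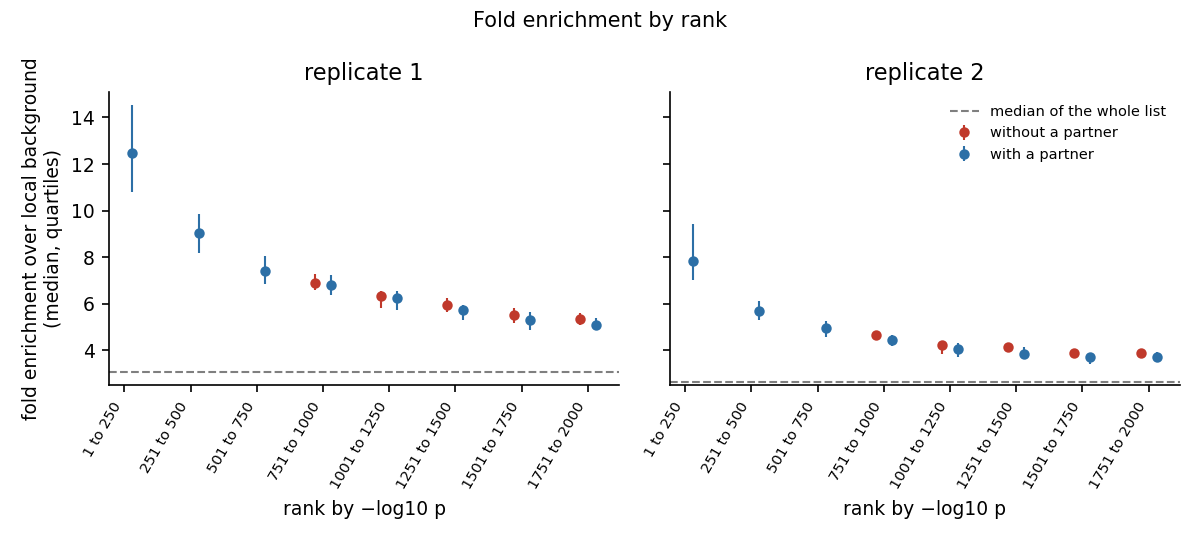
Fold enrichment over the local background (vertical axis; points are medians, bars are quartiles) in bands of 250 ranks (horizontal axis), for peaks with and without a partner; bands with fewer than 20 peaks without a partner show the partnered peaks only. The red points lie slightly above the blue ones in every band of both replicates, and far above the dashed medians of the whole lists, 3.05 and 2.63.

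All of these peaks passed the q threshold of 0.05, as did all partnered peaks of rank 1 to 2000. The rule fixes this, because q follows the p that sets the rank. Among the peaks without a partner the lowest −log10 q was 5.91 in replicate 1 and 3.90 in replicate 2. The pileups had a median of 20 fragments in replicate 1 (16 to 194) and 22 in replicate 2 (20 to 131), against 9 and 15 in the whole lists.

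At the limit of the rule the values ran on without a step. The last peaks inside it in replicate 1 were on chromosome X (85005415 to 85005675, fold 5.41), chromosome 17 (44106698 to 44106950) and chromosome 24 (17361917 to 17362188). The latter pair had a fold of 4.86 from 19 fragments, as did the 3 next peaks without a partner, at ranks 2004, 2005 and 2006. Likewise the peak of replicate 2 at rank 2000 on chromosome 1 (22992527 to 22992783) and the 3 next ones, at ranks 2001, 2002 and 2005, all had a fold of 3.72 from 21 fragments.

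Absence from the other list limits, only in part, how strong the site can have been there. The lists went down to p of 0.01. That no listed peak had a pileup under the lowest that this p allows over its own background follows from its p. At the genome-wide background that lowest pileup was 10 in replicate 2, a fold of 2.06, and 6 in replicate 1, a fold of 2.31. If the other library had the same multiple of its genome-wide background as the member's own, the median limit was a fold of 1.93 for the peaks of replicate 1 and 2.27 for those of replicate 2. A peak also had to stay over the threshold along a minimum length, and the shortest listed were 165 bp and 162 bp in replicates 1 and 2. A site over the limit along a shorter stretch would be absent too.

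The fold of each group is set against these limits here, on a scale that differed between the libraries. In replicate 1 the fold was a median of 2.91 times the limit in replicate 2, and at least 2 times the limit at 378 of 382. The lower bound of the interval was over the limit at all 382. For replicate 2 the fold was a median of 1.76 times the limit in replicate 1, and at least 2 times the limit at 19 of 393. The lower bound was over the limit at 390 of 393. The same fold in the other library would have given a median pileup of 37.5 fragments in replicate 2, where the median limit was 11. In replicate 1 it would have given 11.7, where the median limit was 6. The peaks were chosen for high values in their own list, and these ratios carry that choice. These ratios also carry the scale of fold of each library. Over ranks 1 to 2000 the partnered peaks of replicate 1 had a median fold of 6.79, and their partners in replicate 2 had 4.06. Those of replicate 2 had 4.48, and their partners in replicate 1 had 5.94. The ratios of 2.91 and 1.76 are therefore not like for like.

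Partnered peaks of like rank seldom had a partner near the limit. For replicate 1 past rank 1000, the 670 partners in replicate 2 had a median fold of 3.43 (quartiles 2.90 and 4.30) and stood a median of 11 fragments above the lowest pileup listed for their background. Of them 17 (2.54%) stood within 2 fragments of it. The same ranks held 330 peaks without a partner. For replicate 2 the 634 partners had a median fold of 4.55 (3.37 and 6.24), also a median of 11 fragments above the limit. Of them 29 (4.57%) stood within 2 fragments of it. The same ranks held 366 peaks without a partner. Whether sites without a partner fell just under the limit or far under it is not in the lists and was not tested. The partner had q ≤ 0.05 at 87.3% (84.6 to 89.7) in replicate 1 and at 88.2% (85.4 to 90.6) in replicate 2.

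Peaks without a partner were narrower than partnered ones. The median width was 328 bp (320 to 338) in replicate 1 against 400 bp (393 to 405) with a partner, and 249 bp (244 to 256) in replicate 2 against 335 bp (329 to 341). Partnered peaks also ranked higher. Past rank 1000 the medians came closer, 325 bp against 353 bp in replicate 1 and 247.5 bp against 286 bp in replicate 2, and the peaks without a partner were narrower in all 5 bands of both replicates. A wide peak has more room to overlap another, so width is not independent of the rule.

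Between the replicates the widths differed too. Those of replicate 1 stood well above the 197 bp median of their whole list, and those of replicate 2 stood nearer to the 196 bp of theirs. The widest were on chromosome 28 in replicate 1 (10820950 to 10821852, 903 bp, fold 6.44) and on chromosome X in replicate 2 (9973305 to 9974101, 797 bp, fold 2.56). The narrowest were 168 bp, on chromosome 7 in replicate 1 (80952727 to 80952894, fold 1.78), and 162 bp, at 3 peaks of replicate 2 on chromosomes 17, 2 and 20 with folds of 3.44, 3.77 and 3.87.

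**Figure D3:**
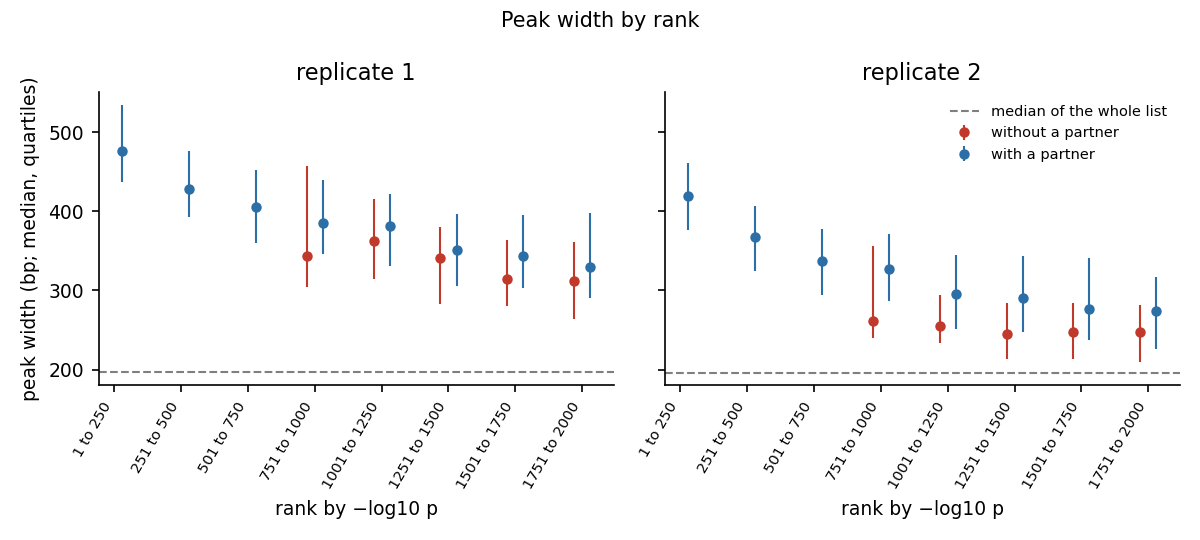
Peak width in bp (vertical axis; points are medians, bars are quartiles) in bands of 250 ranks (horizontal axis), for peaks with and without a partner, with the median of the whole list as a dashed line. The red points lie below the blue ones in every band shown, from 312 bp to 362 bp in replicate 1 and from 245 bp to 261.5 bp in replicate 2.

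The summits lay in the middle of the peaks, with or without a partner. The median summit position, from 0 at the start to 1 at the end of the peak, was 0.487 without and 0.495 with a partner in replicate 1, and 0.495 and 0.495 in replicate 2. The summit lay between 20% and 80% of the width at 98.4% (96.6 to 99.4) of the peaks without a partner in replicate 1 and 98.5% (96.7 to 99.4) in replicate 2. The median distance from the centre was 20.8 bp and 17.5 bp, against 26 bp and 21 bp with a partner. In the whole lists 87.1% and 87.0% of the summits lay in that inner zone. The whole lists hold mostly weaker and narrower peaks, so this difference is not read as particular to peaks without a partner.

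The background at these peaks, which the peak caller takes from the input, was lower than at partnered peaks. In multiples of the genome-wide value the median was 1.25 (1.20 to 1.30) without and 1.46 (1.44 to 1.46) with a partner in replicate 1, and 1.08 (1.06 to 1.11) and 1.27 (1.27 to 1.27) in replicate 2. The order was the same in all 5 bands of ranks in both replicates. The background enters the p by which peaks were ranked, so it is not independent of the rule.

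The share of peaks at the genome-wide background, the lowest value that the peak caller allows, differed between the replicates over ranks 1 to 2000. Within 0.1% of that value lay 16.8% (13.1 to 20.9) of the peaks of replicate 1 without a partner, between the 10.3% (8.82 to 11.8) of partnered peaks and the 30.2% of the whole list. In replicate 2 the share was 29.8% (25.3 to 34.6), close to the 25.7% of the whole list. Partnered peaks of replicate 2 had 11.3% (9.82 to 12.98). The share in replicate 2 moved widely between bands of 250 ranks. It was 43.6% in the band up to rank 1500, 7.84% in the next and 41.4% in the last. Partnered peaks had 15.7%, 4.05% and 19.4% there. In the middle one of these bands replicate 1 had 16.7% without a partner. The closeness to the whole list and the difference between the replicates are therefore stated for the pooled ranks only.

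**Figure D4:**
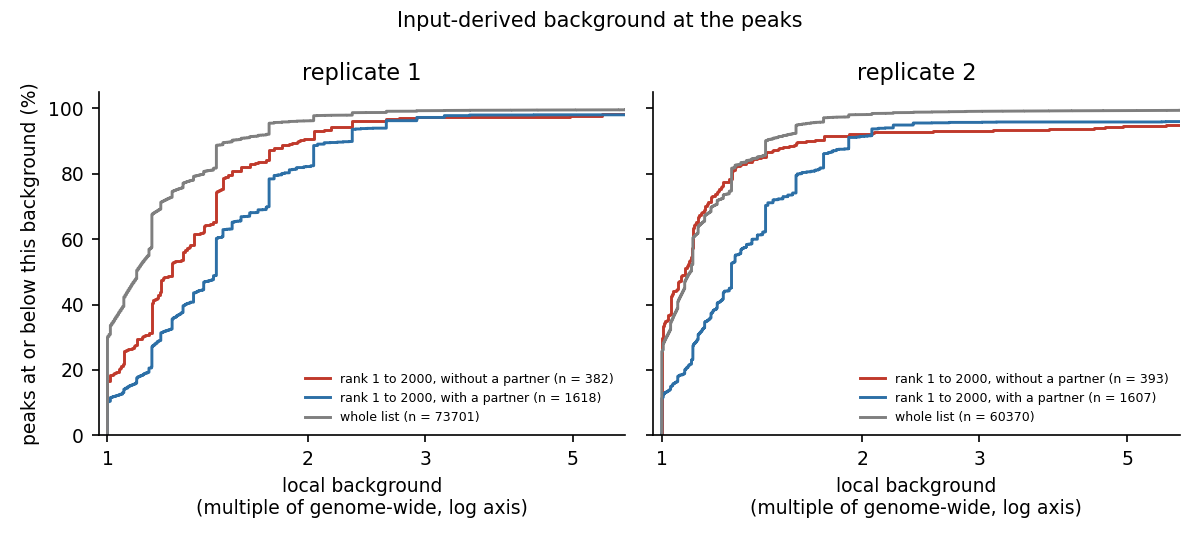
Cumulative share of peaks (vertical axis, %) by local background in multiples of the genome-wide value (horizontal axis, log scale, drawn to 6) for peaks of rank 1 to 2000 without a partner, those with a partner and the whole list. In replicate 1 the red line runs between the other lines, with a median of 1.25 between 1.46 and 1.11, and in replicate 2 it runs close to the whole list at the lower backgrounds, with medians of 1.08 and 1.11.

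A minority sat where the input itself was piled up. A background of 5 or more times the genome-wide value was found at 9 peaks of replicate 1 (2.36%, 1.08 to 4.43) and 21 of replicate 2 (5.34%, 3.34 to 8.05), beside 1.98% and 4.17% of partnered peaks and 0.488% and 0.677% of the whole lists. Their folds were low, with medians of 2.73 and 2.13, and their pileups ran from 38 to 194 and from 60 to 131. The highest background of these peaks was 56.3 times the genome-wide value, on chromosome 22 in replicate 1 (61417755 to 61418127, rank 1531), where 194 fragments gave a fold of 1.70. It was named after its value was seen. Among ranks 1 to 1000 of replicate 2 these peaks were 4 of 27 (14.8%, 4.19 to 33.7), beside 1.54% (0.865 to 2.53) of partnered peaks. Past rank 1000, where most peaks without a partner lay, the order was the other way round in replicate 2. High background was found there at 4.64% (2.73 to 7.33) without and 8.20% (6.19 to 10.6) with a partner. In replicate 1 past rank 1000 the shares were 2.42% (1.05 to 4.72) and 2.84% (1.72 to 4.39).

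Most of this group in replicate 2 lay at chromosome starts. Of its 21 peaks, 19 started within 250 kb of a chromosome start, while 4 of the 9 in replicate 1 did. The first 250 kb held 27 peaks of replicate 2 without a partner (6.87%, 4.58 to 9.84), on 12 chromosomes and 7 of them on chromosome 37, beside 3.17% (2.37 to 4.15) of partnered peaks. In replicate 1 they held 8 (2.09%, 0.908 to 4.08), each on another chromosome, beside 1.11% (0.661 to 1.75).

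Every one of the 39 chromosomes held peaks without a partner, from 3 to 26 in replicate 1 and from 3 to 28 in replicate 2. In replicate 1 chromosome 2 held the most, 26, followed by chromosome 17 with 23 and chromosome 1 with 21. In replicate 2 chromosomes 1 and X held 28 each and chromosome 17 held 20. Chromosome 2 had 26 of 91 top peaks without a partner in replicate 1 (28.6%, 19.6 to 38.999) and 10 of 77 in replicate 2 (13.0%, 6.41 to 22.6).

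Chromosome 38 had few top peaks, and its share without a partner could not be told from the general share in either replicate. Its wide intervals held the 19.1% of replicate 1 and the 19.65% of replicate 2 over all chromosomes. Chromosome 38 had 6 without and 10 with a partner in replicate 1 (37.5%, 15.2 to 64.6), and 6 and 7 in replicate 2 (46.2%, 19.2 to 74.9). Chromosome 9 had low shares without a partner, 6 of 69 in replicate 2 (8.70%, 3.26 to 17.97) and 14 of 86 in replicate 1 (16.3%, 9.20 to 25.8), where the interval held the 19.1% of all chromosomes. With counts of this size most chromosomes could not be told from the general share. The interval of a chromosome's share of these peaks held its share of partnered peaks at 36 of 39 chromosomes in replicate 1 and 35 in replicate 2, and its share of the whole list at 35 and 37. Chromosomes 14 and 17 together held 8.90% (6.24 to 12.2) of these peaks in replicate 1 and 7.89% (5.42 to 11.01) in replicate 2, beside 7.35% and 6.66% of partnered peaks.

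The X chromosome separated the replicates. In replicate 1 it held 10 of the 382 peaks without a partner, 2.62% (1.26 to 4.76), close to the 1.48% (0.953 to 2.20) of partnered peaks and under the 6.33% of the whole list. In replicate 2 it held 28 of 393, 7.12% (4.79 to 10.1), over the 1.62% (1.06 to 2.36) of partnered peaks and near the 6.32% of the whole list. Put the other way, 28 of the 54 top peaks of the X in replicate 2 had no partner (51.9%, 37.8 to 65.7), against 10 of 34 in replicate 1 (29.4%, 15.1 to 47.5).

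The X peaks of replicate 2 came in at the lower ranks. In the 250 ranks up to 1250 and up to 1500 they were 2.94% and 2.56% of the peaks without a partner, beside 2.78% and 2.33% of partnered peaks, and in the last 250 ranks 11.8% (7.17 to 18.1) beside 1.02% (0.0258 to 5.55). The best was at rank 1190, and 25 of the 28 were past rank 1500, where they made up 9.84% (6.47 to 14.2) of the peaks without a partner. None of the 27 peaks of ranks 1 to 1000 lay there, which allows a share of up to 12.8%. Their folds ran from 2.56 to 4.31 with a median of 3.94, that of all peaks of replicate 2 without a partner. In replicate 1 the X peaks ran from rank 891 to rank 1998, with a median fold of 5.67.

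Most of these peaks were over 1000 bp from the nearest peak of the other list, as were most peaks of the whole lists. In replicate 1 the distance to the nearest peak of replicate 2 had a median of 23796 bp (20612 to 29123), from 53 bp to 216771 bp. Within 100 bp there were 2 of 382, within 500 bp 10, and within 1000 bp 18 (4.71%, 2.82 to 7.35). The median distance in replicate 2 was 7786 bp (6641 to 9800), from 17 bp to 125373 bp, with 4 of 393 within 100 bp, 24 within 500 bp and 46 (11.7%, 8.70 to 15.3) within 1000 bp. The share within 1000 bp was 7.48% over the whole list of replicate 1 and 9.10% over that of replicate 2, counting peaks that did not overlap.

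A partnered peak overlaps the other list by definition, so the comparison was made with the nearest peak of the other list that did not overlap. The median for partnered peaks was 23956 bp (21865 to 25594) in replicate 1, almost the value of the peaks without a partner, and 10622 bp for the whole list. In replicate 2 it was 13622 bp (12379 to 14874) for partnered peaks and 8222 bp for the whole list, and the 7786 bp of the peaks without a partner was the shortest of these values. A peak of the other list lay within 10000 bp of 25.9% (21.6 to 30.6) of the peaks of replicate 1 without a partner, of 26.7% (24.6 to 28.9) of its partnered peaks and of 48.2% of its whole list. In replicate 2 the shares were 55.98% (50.9 to 60.95), 42.1% (39.6 to 44.5) and 56.1%.

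Peaks of the same list showed the same split. The nearest neighbour in the own list was a median of 13768 bp away in replicate 1 (11669 to 17816), against 13414 bp for partnered peaks and 8547 bp for the whole list. In replicate 2 it was 9090 bp (7748 to 10939), against 22819 bp for partnered peaks and 9593 bp for the whole list. The peaks of replicate 1 without a partner thus lay in stretches as poor in weak peaks as those of partnered peaks, and the peaks of replicate 2 without a partner lay in stretches like those of its list at large.

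**Figure D5:**
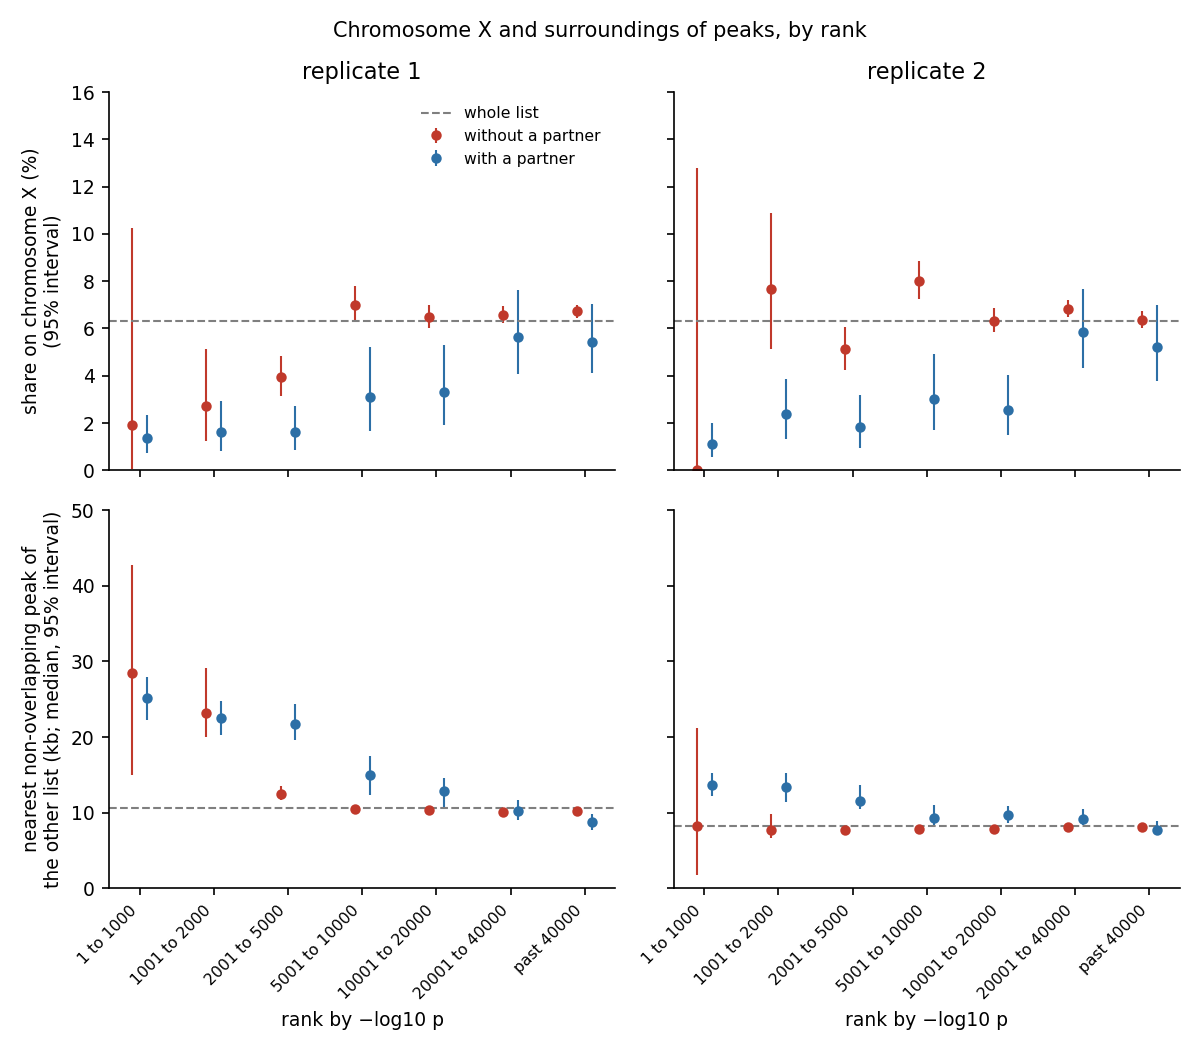
Share of peaks on chromosome X (upper row, %, exact binomial 95% intervals) and median distance to the nearest non-overlapping peak of the other list (lower row, kb, exact 95% intervals of the median) by rank (horizontal axis), for peaks with and without a partner; the dashed lines are the whole lists. In the pooled band of ranks between 1000 and 2000 the red points lie beside the blue ones in replicate 1 and beside the dashed line in replicate 2.

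Further down the list the peaks of replicate 1 without a partner came nearer to the values of the whole list. Their median distance to the nearest peak of replicate 2 was 12466 bp (11623 to 13503) between ranks 2000 and 5000 and 10358 bp between ranks 10000 and 20000. The share on the X was 3.93% (3.15 to 4.83) and 6.49% (6.01 to 7.01) in these bands, and the share at the genome-wide background was 32.1% and 35.9%. In replicate 2 the distance hardly moved, at 7743 bp and 7836 bp. Peaks without a partner make up 93.2% of the whole list of replicate 1 and 91.7% of that of replicate 2. Values near those of the lists at lower ranks are therefore largely given in advance, and nothing is read from them.

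The peaks of the other list beside these near misses were both strong and weak. Of the 18 within 1000 bp in replicate 1, the nearest peak of replicate 2 was itself of rank 1 to 2000 at 9 and had q of 0.05 or less at 14, and 4 lay in background of 5 or more times the genome-wide value. Of the 46 in replicate 2, the nearest peak of replicate 1 had such a rank at 4 and such a q at 24, and 13 lay in high background. Over the whole lists 33.7% of the peaks of replicate 2 and 34.0% of those of replicate 1 had such a q. Such a rank is held by 2000 of 60370 peaks in replicate 2 and 2000 of 73701 in replicate 1. On chromosome 7 the peak of replicate 1 at 13118177 to 13118550 (fold 7.46, 5.08 to 10.6, rank 593) lay 67 bp from a peak of replicate 2 of fold 4.41 and rank 891, with the summits 404 bp apart.

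In a single case the near miss joined peaks of both sets. On chromosome 22, the peak of replicate 1 at 32986561 to 32986928 (rank 1905) was enriched 5.39-fold from 17 fragments. The peak of replicate 2 at 32986092 to 32986398 (rank 1638) was enriched 3.67-fold from 24 fragments. They lay 162 bp apart, with summits 486 bp apart, and each was without a partner by the rule. This pair included, 3 peaks of each replicate had a peak of the other set within 10 kb.

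The distances to other peaks of rank 1 to 2000 are given as counts, with no like count for partnered peaks. In replicate 1, 0 of 382 had another such peak of the same list within 10 kb, and in replicate 2, 4 of 393 did. A partnered peak of rank 1 to 2000 of the same list lay within 10 kb of 23 (6.02%) in replicate 1 and of 24 (6.11%) in replicate 2. Within 100 kb the numbers parted, with 102 (26.7%) in replicate 1 and 54 (13.7%) in replicate 2. The part that antibody lot, depth or the choice of input played in the differences between the replicates was not tested.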

How the data were processed

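TWIST1 ChIP and input libraries of MDCK cells expressing human TWIST1 were sequenced in replicates 1 and 2. The submitters' processing notes name Bowtie2, Picard, MACS2 and the build CanFam3.1. Tool versions, filters and which input served which ChIP library: not given in the sources used here. Each TWIST1 library has its own deposited narrowPeak list. Its fold enrichment is, by the authors' caller, the ratio of pileup to local background with 1 added to each, while −log10 p and −log10 q, deposited beside it, come from MACS2. The deposited score, the whole part of 10 times −log10 p, was not used. The deposited summit offset, another unit, is in bases from the peak start. The names given to the lists carry a p of 0.05, while their lowest −log10 p values, 2.01 and 2.00, match 0.01.

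Peaks were ranked by −log10 p, ties in file order, and a partner was any peak of the other list overlapping by at least 1 bp. Pileup and background were solved from fold and p, and the lowest background was taken as genome-wide. Medians are given in bands of 250 ranks, with no test. Named peaks were those of best rank (5), highest fold (5), nearest rank 2000 on either side (3 each), nearest to and farthest from the other list, widest and narrowest (3 each), and the partnered peaks next in rank; of these the text prints a part. Other ranks, overlaps and left-out regions were tried. The work was done in Python 3.11.15 with pandas 2.3.3, numpy 2.4.6, scipy 1.17.1 and matplotlib 3.10.9. On simulated data 100% of 2827 pileups were recovered. Replicates are independent experiments per the series' design text; their lists were never averaged. The peaks, lists and measures were chosen with earlier results of these data known. Gene names were left out, because the gene table at hand is of another dog assembly.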

Additional observations from a re-analysis of the deposited data

How the results depend on the processing

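No paired analysis was possible because the results come from no test and each replicate has a single peak list. Of 144 recomputed values for the peaks without a partner and their difference from partnered peaks, 117 stayed within the 95% interval of the reported value, within 1.5 times a reported count, or within the SD between the replicates. Leaving out 1 list at a time moved the pooled share without a partner from 19.4% to between 19.1% and 19.6%. Allowing a gap of 100 or 500 bp, asking for a longer overlap or a partner with q ≤ 0.05, ranking by −log10 q, and leaving out high background, chromosomes 14 and 17 or the X moved no value beyond these limits; the share on the X has no value without the X. The number of ranks mattered most, by its construction. With ranks 1 to 1000 there were 52 peaks without a partner in replicate 1, with a median fold of 7.14 and width of 357 bp, and 27 in replicate 2, with a fold of 4.65, a width of 274 bp, a summit position of 0.461 and 0% on the X. With ranks 1 to 3000 there were 942 and 1054, with folds of 4.96 and 3.69, widths of 299 bp and 235.5 bp, and a distance of 18954 bp to the other list in replicate 1. Ranking by fold gave median folds of 5.59 and 3.80 and widths of 319.5 bp and 238 bp; the cause was not tested.

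The difference in median fold, without minus with a partner, was 0.09 in replicate 1 and 0.10 in replicate 2 past rank 1000. It turned to −1.14 and −0.54 over ranks 1 to 2000, where partnered peaks hold the better ranks, and was 0.19 and 0.20 past rank 1500. The difference in width was −28 bp and −38.5 bp, −72 bp and −86 bp over ranks 1 to 2000, and −27.5 bp in replicate 2 past rank 1500. The difference in summit position in replicate 2 went from 0.0033 to −6.9e-05 over ranks 1 to 2000. The order of distances in replicate 1, shorter without a partner by 160.5 bp, held in 6 of 11 alternatives, and that in replicate 2 in 11 of 11. The lowest pileups, 6 and 10 fragments, limit what absence from a list can show.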
